A study of Mus musculus with 11 samples.

Results

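Macrophages stimulated for 1 hour with lipopolysaccharide (LPS, the outer membrane component of Gram-negative bacteria) were set against macrophages left untreated, and the change was described gene by gene. Marrow of wild-type C57Bl/6 mice was cultured for 1 week with 5 ng/ml macrophage colony-stimulating factor (mCSF), and the macrophages were replated and used 24 hours later. They were left untreated (4 arrays) or given 100 ng/ml LPS for 1 hour with no prostaglandin E (3 arrays), so 7 of the 11 arrays of the study carry the comparison. The other 4 arrays, of cells given 100 ng/ml LPS with 10 µM prostaglandin E for 1 hour, entered the estimate of the spread only. Each array measured 250 ng of total RNA with Affymetrix mouse gene 1.1 ST probe sets, which read along whole transcripts. All probe sets naming exactly 1 gene were taken, with 1 row kept per gene (the probe set of highest mean over all arrays), which gave 18755 genes of the 18755 that the series holds by this rule. These are cultured cells without tissue around them, the labels name no vehicle for the untreated cells, and nothing in them ties the replicates to separate mice or cultures. Each p-value then sets a change against the spread between arrays of a group, estimated over all 11 arrays, and that spread may be technical.

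LPS is handed by CD14 to the TLR4 and MD-2 receptor pair on the macrophage surface. The adaptors MyD88 and TRIF then start kinase cascades that free NF-kB from its IkB inhibitors and activate the MAP kinases ERK, JNK and p38. The promoters of primary response genes are already open and need no new protein, so their RNA appears within the first hour, while genes that wait for newly made factors come later. Among the first products are the inhibitors, phosphatases and RNA-decay proteins that end the response, so an array taken at 1 hour sees the drive and its brakes together. The cytokine genes that head the response are not treated in detail here, and the account covers the rest of the transcriptome.

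Values are the deposited log2 values, so a change of 1 is a 2-fold change, and each change is LPS minus untreated ± SE from a limma fit over all 11 arrays. A gene was taken to pass where the p, adjusted by Benjamini-Hochberg over the 18755 genes, was under 0.05, and "rose" and "fell" are used only of genes that passed. Across genes, the correlation was 0.996 to 0.997 within a group and 0.986 to 0.989 between the 2 groups, with array medians of 5.89 to 6.01. Genes are not independent replicates. Precision is limited by how few arrays there are. In RNA from a whole culture, more cells making a transcript and more transcript in each cell cannot be told apart.

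After 1 hour 2483 genes (13.2%) passed. Of these, 1229 rose (6.55%) and 1254 fell (6.69%), but the near balance depended on the scaling. Rises and falls numbered 1592 and 1162 after quantile normalization, 1488 and 1094 after cyclic loess, and 974 and 1486 with equal array medians. The size of the changes was uneven in each of these settings. At least 2-fold, 294 genes rose (1.57%) and 68 fell (0.363%). At least 4-fold 125 rose, and the largest fall was -1.86 (9330175E14Rik, a predicted gene). At least 16-fold 28 rose. Of these 28, 5 rose at least 64-fold. All 294 rises and all 68 falls of 2-fold had LPS arrays that did not overlap the untreated arrays. Such a gap, found in 23.1% of all genes, largely follows from choosing genes by size and p on these same arrays. It is no separate support for them. With genes below the median level left out, 41 genes fell 2-fold.

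How dim a rising gene had been beforehand was gauged roughly against 964 olfactory receptor genes, most of which macrophages are not known to express. Their untreated values had a 95th percentile of 4.16, which is a rough mark only, since probe sets differ in how brightly they respond and no background was measured for any gene. Of the 57 genes that rose at least 8-fold, 46 lay above this mark in all 4 untreated arrays and 2 lay at or below it in all 4. Among all 294 rises of 2-fold, 8 genes lay at or below the mark in every untreated array and above it in every LPS array: Cxcl9, Ifnb1, Il1bos, Il6, Lif, Mir146, Nr4a3 and Tnfaip6. They were singled out after their values were seen. Tnfaip6, a hyaluronan-binding protein, went from a mean of 3.23 to 5.01, and Lif, a cytokine of the interleukin-6 family, from 3.73 to 5.69. Most of the large rises thus started from a value above that of the olfactory receptor genes.

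Calls were fewest among the dim genes. Of 5891 genes with an untreated mean up to 4.16, 82 rose (1.39%) and 63 fell (1.07%). The remaining genes were split by their untreated mean at 6.64 and 8.95 into 3 classes of 4288 genes. In the lowest of these 323 rose and 289 fell, in the middle class 492 rose and 539 fell, and in the highest 332 rose and 363 fell. Rises of 2-fold numbered 109, 115 and 52 in the 3 classes, and falls of 2-fold 22, 37 and 9.

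**Figure D1:**
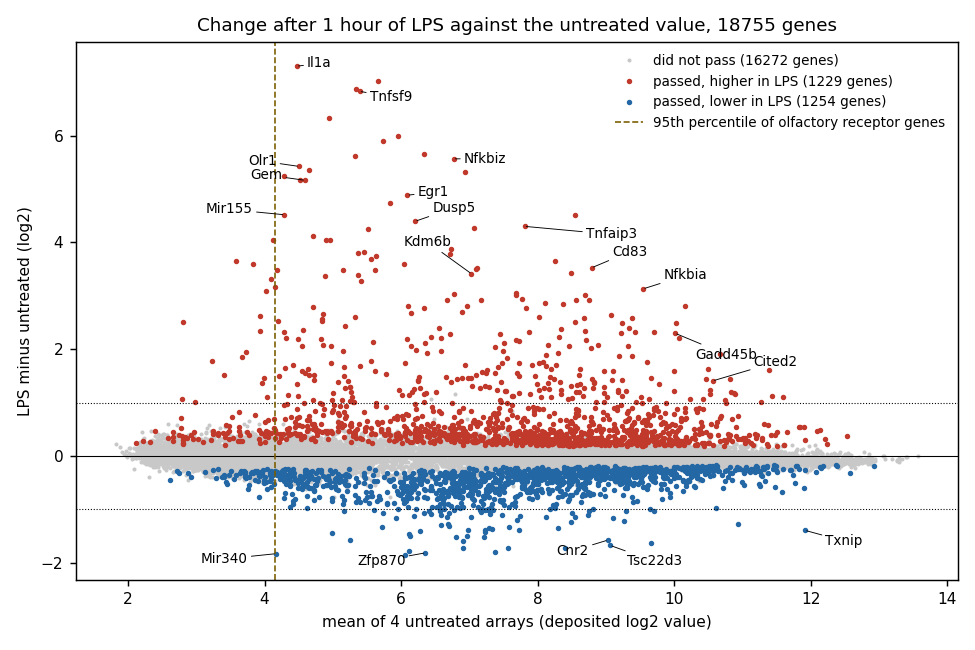
The change after 1 hour of LPS (vertical axis, log2) is plotted against the mean of the 4 untreated arrays (horizontal axis, deposited log2 value) for 18755 genes, coloured by the limma call, and the dashed line marks the 95th percentile of the olfactory receptor genes. Rises reach past 6 on the log2 scale and no fall reaches 2.

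The macrophage label was checked against markers of the lineage. All 12 measured macrophage markers had untreated means of 9.49 or more, with a median of 11.8, and 2 of the 12 rose. Cd14, the LPS co-receptor, read 10.58, 10.48, 10.41 and 10.50 in the untreated arrays and 12.20, 12.15 and 12.03 in the LPS arrays, a rise of 1.64 ± 0.06 (limma adjusted p = 2.5e-09). Msr1, a scavenger receptor, rose by 0.29, and its call was lost when the change had to exceed 0.2 (limma treat). The lineage genes did not pass: the change was -0.13 for Adgre1 (F4/80), -0.06 for Csf1r (the mCSF receptor), -0.07 for Itgam (CD11b) and 0.01 for Spi1 (PU.1, the macrophage-defining factor). The housekeeping genes Actb and Gapdh had changes of -0.02 and -0.08, and neither passed.

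Markers of other cells of the marrow ranged widely in untreated value. The medians of the untreated values were 4.54 over 12 neutrophil markers, 4.97 over 12 dendritic cell markers, 4.06 over 8 B cell markers, 3.93 over 11 T and NK cell markers, 3.81 over 11 mast cell and basophil markers, 4.49 over 5 erythroid markers and 4.77 over 12 stromal markers. The brightest members had untreated means of 10.1 (Mmp8, neutrophil), 10.8 (H2-Eb1, dendritic cell), 7.92 (Cd22, B cell), 12.3 (Il7r, T cell), 5.67 (mast cell list), 9.17 (Tfrc, erythroid) and 6.06 (stromal list). Among neutrophil markers Cxcr2 rose by 0.44 and Retnlg by 0.36, and among dendritic cell markers H2-Eb1 rose by 0.39 and Cd209a by 0.37. The calls of Cxcr2 and H2-Eb1 were lost when the change had to exceed 0.2, and that of Cd209a in 6 of the 23 alternative fits and that of Retnlg in 13 of the 21 that tested it. Of the markers of B cells, of T and NK cells and of mast cells and basophils 0 passed (limma), and 0, 3 and 2 had an unadjusted p under 0.05. Epor, an erythroid marker, fell (change -0.55), as did Col3a1, a stromal marker (-0.25), and their calls were lost in 12 and 15 of the 22 alternative fits that tested them. The part of these cells in the results was not tested. Throughout, counts of 3 or fewer members of a list can move by 1 or more when a single array is left out.

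The sensing machinery itself moved by modest amounts, in both directions. Of 22 measured genes of the TLR4 complex and its adaptors, 9 rose (40.9%, against 6.55% of all genes). A further 3 fell (13.6%, against 6.69%) and 10 did not pass. The median change was 0.12 against -0.0146 over all genes. Cd14 was the 1 member past 2-fold. Peli1, an E3 ligase of the pathway, rose by 0.79, Ticam1 (the adaptor TRIF) by 0.72 and the kinase Irak2 by 0.69. Tlr4, the receptor, read 9.07, 9.06, 9.09 and 9.05 in the untreated arrays and 8.70, 8.59 and 8.69 in the LPS arrays. Its fall of 0.41 ± 0.07 passed (limma adjusted p = 0.0013), as did falls of 0.48 ± 0.08 for Tirap, which bridges the receptor to MyD88, and of 0.49 ± 0.08 for Tab1, a subunit of the TAK1 kinase complex. Myd88 rose by 0.32. The calls of Tlr4, Tirap and Myd88 were lost when the change had to exceed 0.2. Ly96, which encodes MD-2, had a change of -0.27 and did not pass. The co-receptor was thus higher and the receptor lower in the same 3 LPS arrays.

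NF-kB genes formed the list with the largest share of rises. Of 11 measured subunits and inhibitors 10 rose (90.9%, against 6.55% of all genes), 9 of them at least 2-fold, and the median change was 1.45. The inhibitors led. Nfkbiz, the nuclear IkB protein that NF-kB needs at some of its targets, read 6.93, 6.51, 6.60 and 7.03 in the untreated arrays and 12.34, 12.48 and 12.18 in the LPS arrays. The change of 5.57 ± 0.12 is a 47.4-fold rise (limma adjusted p = 1.6e-11). Nfkbia, the IkB-alpha protein that carries NF-kB back to the cytoplasm, read 9.59, 9.57, 9.59 and 9.44 in the untreated arrays and 12.63, 12.72 and 12.67 in the LPS arrays, a rise of 3.13 ± 0.06 (limma adjusted p = 7.8e-12). Nfkbie and Nfkbid, further IkB proteins, rose by 2.94 and 2.86. Rela, the p65 subunit that is held ready in resting cells, rose by only 0.40, from 10.35, 10.28, 10.34 and 10.25 to 10.73, 10.70 and 10.69, and its call was lost when the change had to exceed 0.2. The changes of the 4 IkB proteins named were all larger than that of the p65 subunit. Rela does not stand for the other subunits, since 9 of the 11 members rose at least 2-fold. Nfkb1, the p105 gene, is not analysed here.

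Some ubiquitin editors shut the same pathway by trimming ubiquitin chains from its signalling complexes. The list also holds ligases and binding partners, which do not trim chains. Of 26 measured, 9 rose (34.6%, against 6.55% of all genes) and 17 did not pass. Tnfaip3, the A20 deubiquitinase, read 7.75, 8.05, 7.69 and 7.74 in the untreated arrays and 12.21, 12.05 and 12.07 in the LPS arrays, a rise of 4.30 ± 0.08 or 19.7-fold (limma adjusted p = 7.5e-12). Traf1 rose by 2.77, Tnip3 (an A20-binding protein) by 2.20 and the ligase Trim13 by 2.18. The median over the list was 0.112, so the rises lay in a minority of its members.

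Promoter sequence was available for 14695 of the 18755 genes, as RefSeq windows of 300 bases on GRCm38.p6 that run from 250 bases before to 50 bases after the annotated start. The first listed window was used for the 2518 genes with more than 1. The pattern GGNNTTTCC, a core of NF-kB binding sites, was searched on both strands. It was present in 5.65% of all windows, in 18% of the 228 windows of genes that rose 2-fold, in 22.2% of the 90 that rose 4-fold and in 39.4% of the 33 that rose 8-fold. Genes that fell held it in 7.21% of 999 windows. TGANTCA, the core of AP-1 sites, was present in 6.72% of all windows, 21.2% of those of genes that rose 8-fold and 3.7% of those of genes that fell. TATAAA, a core promoter element, was present in 12.2%, 33.3% and 6.71% of the same 3 sets, and GAAANNGAA, as found in interferon response elements, in 7.96%, 18.2% and 7.01%. TGACGT, a core of the cyclic AMP response element, was present in 9.44%, 18.2% and 10.8%, and GGGCGG, the GC box, in 50.4%, 36.4% and 58.3%. E-boxes (CACGTG) were present in 8.45%, 9.09% and 9.01%, and the CArG box, bound by serum response factor, in 1.44%, 3.03% and 1.2%. The FoxO core GTAAACA was present in 2.96% of all windows, 0 of the 33 of genes that rose 8-fold, 4.82% of those of genes that rose 2-fold, 2.6% of those of genes that fell and 7.41% (4 of 54) of those of genes that fell 2-fold. Each share is a count of letters in a window, and none is a measured binding site. The median GC content also differed, at 57.7% over all windows, 50.3% in genes that rose 8-fold and 59.3% in genes that fell.

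The stretches around these matches are shown for 7 genes that rose and act outside the cytokine group, with the GGNNTTTCC match (or its reverse complement) in capitals and each stretch read 5′ to 3′ on the strand of the gene. Tnfaip3 (minus strand, chr10:19015411-19015454), Nfkbia (minus strand, chr12:55492648-55492845) and Icam1 (plus strand, chr9:21015767-21015884) each hold 2 matches. In Tnfaip3 these start 24 and 12 bases before the annotated start, in Nfkbia 178 and 29 bases, and in Icam1 153 and 84 bases. There is 1 match in Acod1 (plus strand, chr14:103046907-103046955), Dusp5 (plus strand, chr19:53529035-53529083), Ccrl2 (minus strand, chr9:111057558-111057606) and Ier3 (plus strand, chr17:35821554-35821602), 85, 90, 68 and 139 bases before the start.
Tnfaip3: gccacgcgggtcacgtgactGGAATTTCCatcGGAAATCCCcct
Nfkbia: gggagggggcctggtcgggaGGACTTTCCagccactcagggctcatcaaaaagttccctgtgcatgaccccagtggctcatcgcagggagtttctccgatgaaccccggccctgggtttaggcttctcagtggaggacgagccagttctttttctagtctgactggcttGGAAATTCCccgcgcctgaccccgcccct
Icam1: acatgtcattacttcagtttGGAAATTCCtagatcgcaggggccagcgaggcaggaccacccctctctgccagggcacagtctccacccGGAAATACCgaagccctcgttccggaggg
Acod1: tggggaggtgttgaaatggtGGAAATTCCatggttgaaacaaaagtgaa
Dusp5: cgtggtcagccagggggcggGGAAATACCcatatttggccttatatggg
Ccrl2: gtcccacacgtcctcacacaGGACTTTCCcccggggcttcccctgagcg
Ier3: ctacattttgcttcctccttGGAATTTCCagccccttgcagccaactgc
The 7 genes were picked by hand among genes that rose at least 4-fold and hold a match before the start. Others outside the cytokine group, such as F3, Nlrp3 and Tnip3, were left out. Of the 90 windows of genes that rose 4-fold, 20 held a match. The roles and changes of the 7 thus follow from the choice: a deubiquitinase, an IkB protein, an adhesion molecule, a metabolic enzyme, a phosphatase, a chemoattractant receptor and a survival factor. Their changes lay between 2.39 for Icam1 and 5.32 for Acod1.

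Kinases of the MAP kinase cascades changed by modest amounts, and no member reached 2-fold. Of 27 measured, 8 rose (29.6%, against 6.55% of all genes), 1 fell and 18 did not pass, with a largest change of 0.883. Mapk6 (ERK3) rose by 0.88, Map3k8 (Tpl2, which carries the signal to ERK) by 0.86, Map3k6 by 0.79 and Mapkapk2, the p38 target kinase, by 0.74. Mapk7 (ERK5) fell by 0.46, a call lost when the change had to exceed 0.2. Larger rises lay outside the cascades. Pim1, a survival kinase active as soon as it is made, read 9.83, 10.17, 10.10 and 10.04 in the untreated arrays and 12.53, 12.51 and 12.51 in the LPS arrays, a rise of 2.48 ± 0.08 (limma adjusted p = 2.6e-10). Plk2 and Plk3, polo-like kinases of the stress response, rose by 2.33 and 1.16, and Pim3 by 1.38. Pik3ip1, an inhibitor of PI3 kinase, fell by 0.78. In the list of PI3K, phosphoinositide and AGC kinases 7 of 26 rose (26.9%) and 1 fell. That list also held the Pim and polo-like kinases, and its 4 rises of 2-fold were Pim1, Plk2, Pim3 and Plk3.

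The brakes on these cascades included much larger rises. Of 39 measured phosphatases and inhibitors of the MAPK and JAK-STAT pathways, 17 rose (43.6%, against 6.55% of all genes). Of these 10 rose at least 2-fold, and 2 of the list fell (5.13%, against 6.69%). Dusp5, a nuclear phosphatase of ERK, read 6.10, 6.13, 6.26 and 6.34 in the untreated arrays and 10.63, 10.64 and 10.54 in the LPS arrays, a rise of 4.40 ± 0.07 (limma adjusted p = 1.9e-12). Dusp2 rose by 3.81 and Dusp1, which inactivates p38 and JNK, by 2.80. Socs6, a further brake, fell by 0.52, a call lost when the change had to exceed 0.2. Stat2, the interferon signal transducer placed in the same list, fell by 1.03 ± 0.06, from 8.79, 8.70, 8.78 and 8.75 to 7.80, 7.74 and 7.64 (limma adjusted p = 1.5e-07). Every LPS array lay below every untreated array for Stat2.

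Transcription factors divided by family. Of 25 measured AP-1, ATF and Maf factors 13 rose (52%, against 6.55% of all genes). In that list 1, Maf, fell by 0.27, a call lost in 13 of the 23 alternative fits. Maff, a small Maf protein without an activation domain of its own, read 5.62, 5.06, 5.40 and 5.76 in the untreated arrays and 9.27, 9.29 and 9.26 in the LPS arrays, and its rise of 3.82 ± 0.13 was the largest of the family (limma adjusted p = 9.4e-10). Fosb rose by 3.27, Fos by 2.60 and Junb by 2.05. Among 18 EGR and serum response genes 8 rose (44.4%), 7 of them 2-fold. Egr1 read 5.87, 6.23, 6.25 and 6.01 in the untreated arrays and 11.06, 10.81 and 11.06 in the LPS arrays (change 4.88 ± 0.11, limma adjusted p = 1.9e-11). Csrnp1 rose by 4.27, Egr3 by 3.38 and Ier2 by 2.68, whereas Ier5l fell by 1.11 ± 0.16 (limma adjusted p = 0.00063), from 6.87, 6.48, 6.28 and 6.72 to 5.77, 5.17 and 5.49. The early genes of the serum response were therefore not uniform in direction.

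The nuclear receptors of the NR4A group, which act without a known ligand, rose by unequal amounts. Nr4a1 read 6.80, 6.50, 6.95 and 6.69 in the untreated arrays and 10.50, 10.57 and 10.77 in the LPS arrays, a rise of 3.88 ± 0.10 (limma adjusted p = 5.3e-11), and Nr4a3 rose by 2.63 from values within the olfactory range, while Nr4a2 rose by only 0.46, a call lost when the change had to exceed 0.2. In the list of homeobox and nuclear receptor factors 7 of 27 rose (25.9%, against 6.55% of all genes) and 3 fell (11.1%, against 6.69%). Hhex, a homeobox repressor, fell by 0.74, Nr2c2 by 0.34 and Ppara by 0.30, the last a call lost in 14 of the 21 alternative fits that tested it and Nr2c2 when the change had to exceed 0.2. Of 11 interferon regulatory factors 3 rose (27.3%), Irf1 by 2.58, Irf4 by 1.96 and Irf3, the factor downstream of TRIF, by 0.30. The call of Irf3 was lost when the change had to exceed 0.2 and without LPS replicate 3. Irf2bp1, a co-repressor, fell by 0.55, and Irf8, a lineage factor, had a change of -0.18 and did not pass.

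Other families had few members past 2-fold, and the forkhead and circadian clock lists had 0. Of 8 C/EBP factors and partners 2 rose (25%, against 6.55% of all genes), Trib1 by 2.93 and Cebpb by 1.51. Another 2 fell (25%, against 6.69%), Cebpa by 0.49 and Cebpg by 0.32. Trib1 is a pseudokinase that sends C/EBP-alpha to degradation, and the calls of Cebpa and Cebpg were lost when the change had to exceed 0.2. Of 29 Hes, Id and Myc network factors 6 rose (20.7%) and 2 fell (6.9%). The falls were Hes6 and Usf2, whose calls were lost in 10 and 8 of the 23 alternative fits. Myc read 7.81, 7.54, 7.65 and 7.70 in the untreated arrays and 10.72, 10.92 and 10.57 in the LPS arrays, a rise of 3.06 ± 0.09 (limma adjusted p = 2.3e-10), Tfec rose by 1.75, Id3 by 1.24 and Mxd1, which competes with Myc for its partner, by 1.20. Of 16 Ets factors 5 rose (31.2%), led by Ets2 at 2.38, and with equal array medians 3 rose. Elf2, of the same list, fell by 0.31, a call lost in 4 of the 23 alternative fits. Of 17 Kruppel-like factors 3 rose (17.6%), Klf7 by 1.74, Klf6 by 1.16 and Klf2 by 0.84. After quantile normalization 5 of them rose. Of 17 forkhead factors 2 rose, Foxp4 by 0.84 and Foxn2 by 0.67. Among 14 circadian clock genes 2 rose, Per1 by 0.65 and Nfil3 by 0.40. Over the alternatives that kept every array 1 to 5 of the clock genes rose, and without LPS replicate 2 only Per1 did. The shares that passed in the forkhead and clock lists, 11.8% and 14.3%, are near the 13.2% of all genes.

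**Figure D2:**
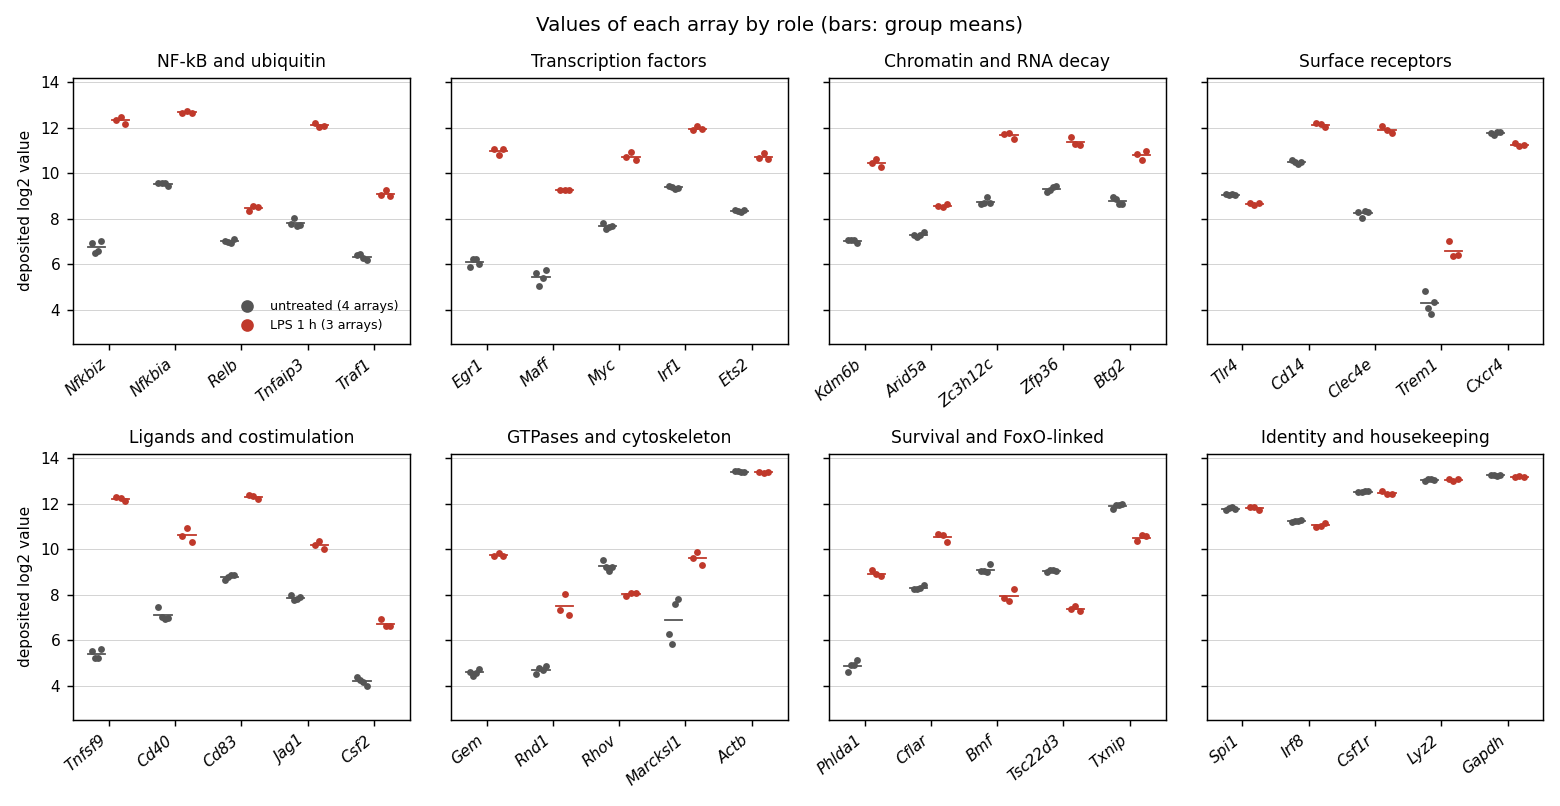
Each point is the deposited log2 value of 1 array for the genes named on the horizontal axes, grouped by role, with the 4 untreated arrays in grey, the 3 LPS arrays in red and bars at group means. The groups lie apart for the genes that passed, and the 3 LPS arrays of a gene lie close together against the size of its change.

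Most chromatin enzymes and readers did not pass, although 26.5% did, against 13.2% of all genes. Of 49 measured, 11 rose (3 when the change had to exceed 0.2), 2 fell (Setd7 and Brd3, calls lost at that setting) and 36 did not pass, with a median change of 0.011. Kdm6b (JMJD3), the demethylase that removes the repressive mark from histone H3 lysine 27, read 7.05, 7.06, 7.06 and 6.95 in the untreated arrays and 10.43, 10.62 and 10.28 in the LPS arrays, a rise of 3.41 ± 0.08 or 10.6-fold (limma adjusted p = 4.6e-11). Arid5a, counted here but known also for binding and stabilising Il6 messenger RNA, rose by 1.29, and Tet2, which oxidises methylcytosine, by 0.57. Kdm6b and Arid5a were the 2 members past 2-fold.

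Regulators of mRNA decay include factors that shorten the life of cytokine messages. Of 33 measured, 9 rose (27.3%, against 6.55% of all genes), 5 of them 2-fold. Another 2 fell (6.06%, against 6.69%), Tob2 and Eif4ebp2, calls lost when the change had to exceed 0.2. Zc3h12a (Regnase-1), an endonuclease that cuts cytokine messages, read 8.06, 8.18, 8.20 and 8.14 in the untreated arrays and 10.24, 10.23 and 10.22 in the LPS arrays, a rise of 2.09 ± 0.06 (limma adjusted p = 1.4e-10). Its relative Zc3h12c rose by 2.92. Zfp36 (tristetraprolin), which binds AU-rich elements and recruits deadenylases, rose by 2.05, and Btg2, which stimulates deadenylation, by 2.02. The messages of 4 decay factors were thus higher at 1 hour, each without overlap between the groups.

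Receptors on the cell surface changed selectively. Of 22 chemoattractant receptors 7 rose (31.8%, against 6.55% of all genes) and 2 fell (9.09%, against 6.69%). Gpr84, a receptor for medium-chain fatty acids, read 7.45, 6.66, 6.98 and 7.29 in the untreated arrays and 10.77, 10.46 and 10.56 in the LPS arrays, a rise of 3.50 ± 0.24 (limma adjusted p = 6.5e-07). Ccrl2, which presents the attractant chemerin and does not signal by the usual route, rose by 3.42, Gpr132 by 1.76 and Ccr3 by 1.14. Cxcr4, which holds cells in the marrow, fell by 0.51 ± 0.06 (limma adjusted p = 9.2e-05), from 11.76, 11.70, 11.82 and 11.81 to 11.33, 11.19 and 11.26, and C5ar2, the second C5a receptor, by 0.32, a call lost when the change had to exceed 0.2 and without LPS replicate 3. Of 43 cytokine and growth factor receptors 6 rose (14%) and 2 fell (4.65%), and the largest change was 0.708. The falls were Il6ra and Acvr1b, calls lost when the change had to exceed 0.2. The activin receptor Acvr2a rose by 0.71, Il17ra by 0.58 and Il10ra by 0.55. Rises in this list numbered 3 to 13 over the alternatives that kept every array, so its count is not firm. Of 18 purine receptors and nucleotide enzymes 2 rose (11.1%), P2ry2 by 0.90 and P2ry13 by 0.61. Another 2 fell (11.1%), P2rx7, the ATP-gated channel, by 0.35 and Entpd1 by 0.23. The call of P2rx7 was lost when the change had to exceed 0.2, and that of Entpd1 in 10 of the 23 alternative fits.

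Among 40 phagocytic, Fc and lectin receptors 8 rose (20%, against 6.55% of all genes), 4 of them 2-fold. Another 2 fell, Clec7a and Fcgr3, whose calls were lost in 5 and 16 of the 23 alternative fits. Olr1, the LOX-1 receptor for oxidised lipoprotein, read 4.56, 4.43, 4.65 and 4.38 in the untreated arrays and 9.96, 10.34 and 9.48 in the LPS arrays. The rise of 5.42 ± 0.16 is 42.9-fold (limma adjusted p = 2.3e-10). Clec4e (Mincle), a lectin receptor for mycobacterial and fungal glycolipids, rose by 3.66 from 8.30, 8.04, 8.35 and 8.32 to 12.06, 11.92 and 11.75. Trem1, which amplifies inflammatory signals, rose by 2.32, and Clec5a by 1.29. The median change of the list was -0.0218, so these receptors were a minority of the list.

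Some ligands and receptors for T cells rose. Of 38 TNF family members 8 rose (21.1%, against 6.55% of all genes) and 30 did not pass. Of 29 antigen presentation and costimulation genes, which share some members with that list, 11 rose (37.9%) and 2 fell (6.9%, against 6.69%). Tnfsf9 (4-1BB ligand) read 5.52, 5.22, 5.22 and 5.61 in the untreated arrays and 12.29, 12.26 and 12.11 in the LPS arrays. Its change of 6.83 ± 0.10, a 114-fold rise, was the largest of both lists (limma adjusted p = 1.9e-12). Cd40 read 7.48, 7.03, 6.95 and 6.99 in the untreated arrays and 10.58, 10.96 and 10.35 in the LPS arrays, a rise of 3.52 ± 0.22 (limma adjusted p = 2.3e-07), and Tnfsf4 (OX40 ligand) rose by 3.10. Cd83, which steadies MHC class II at the surface, rose by 3.53, and Icosl by 2.16. The inhibitory ligand Cd274 (PD-L1) rose by 1.36 in the same hour, and Cd200r1, an inhibitory receptor, fell by 0.50. Vsir, an inhibitory receptor of the B7 group, fell by 0.17, a call lost in 19 of the 23 alternative fits. Stimulating and restraining ligands were both higher.

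Of 31 integrins and adhesion molecules 7 rose (22.6%, against 6.55% of all genes) and 1, Cd151, fell. The call of Cd151 was lost when the change had to exceed 0.2 and when its probe sets were averaged. Icam1, a ligand of leukocyte integrins, read 9.29, 9.34, 9.36 and 9.39 in the untreated arrays and 11.77, 11.80 and 11.63 in the LPS arrays, a rise of 2.39 ± 0.09 (limma adjusted p = 2.2e-09). Plaur, the urokinase receptor, rose by 1.59 and Vcam1 by 1.45. With genes below the median level left out 11 of the list rose.

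Of 30 growth and angiogenic factors 12 rose (40%, against 6.55% of all genes), 9 of them 2-fold, and 18 did not pass. Clcf1, a cytokine of the CNTF group, rose by 3.40, and Csf2 (GM-CSF) read 4.38, 4.25, 4.16 and 3.99 in the untreated arrays and 6.96, 6.62 and 6.62 in the LPS arrays, a rise of 2.54 ± 0.29 (limma adjusted p = 7.2e-05). Edn1 (endothelin-1, a vasoconstrictor) rose by 2.35 and Csf1, the gene of the factor in which the cells were grown, by 2.14. Of 23 Notch pathway genes 5 rose (21.7%) and 2 fell (8.7%, against 6.69% of all genes), and 1 rose when the change had to exceed 0.2. The ligand Jag1 read 8.0, 7.80, 7.82 and 7.89 in the untreated arrays and 10.18, 10.39 and 10.03 in the LPS arrays, a rise of 2.32 ± 0.15 (limma adjusted p = 2.9e-07), while Lfng, a glycosyltransferase that modifies Notch, fell by 0.50. Psen2, of the gamma-secretase that cuts Notch, fell by 0.27, a call lost in 3 of the 23 alternative fits, and the further rises were Rbpj, Maml1, Maml3 and Adam17. Of 24 TGF-beta and BMP genes 4 rose (16.7%). Skil (SnoN, a repressor of Smad proteins) rose by 1.22, Inhba (an activin subunit) by 1.19 and Bmp2 by 1.02. The calls of Smad3, the fourth, and of Smad4, which fell, were lost in 18 and 14 of the 23 alternative fits. Jag1 was the 1 Notch gene past 2-fold.

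Of 40 small GTPases and their regulators 17 rose (42.5%, against 6.55% of all genes), 10 of them 2-fold, and 2 fell (5%, against 6.69%). Gem, a GTPase that restrains calcium channels, read 4.61, 4.44, 4.59 and 4.74 in the untreated arrays and 9.72, 9.83 and 9.72 in the LPS arrays, a rise of 5.16 ± 0.09 or 35.8-fold (limma adjusted p = 1.9e-12). Cdc42ep2 rose by 2.81, Rnd1, which loosens the actin skeleton, by 2.79, and Rab20, a GTPase of phagosomes, by 2.29. Rhov fell by 1.22 ± 0.11 (limma adjusted p = 6.7e-06), from 9.55, 9.23, 9.05 and 9.22 to 7.97, 8.09 and 8.06, and Rgs2, which switches off G proteins, by 0.61. Rhov was thus the 1 member with a 2-fold fall.

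Of 38 cytoskeleton and motility genes 10 rose (26.3%, against 6.55% of all genes) and 28 did not pass. Over the alternatives that kept every array 5 to 12 rose. Marcksl1, an actin-binding protein, read 6.30, 5.84, 7.61 and 7.83 in the untreated arrays and 9.60, 9.89 and 9.32 in the LPS arrays. The 4 untreated values of this gene spread over nearly 2 units, and all lay below the LPS values, a rise of 2.70 ± 0.39 (limma adjusted p = 0.00053). Ehd1, which recycles endosomal cargo, rose by 2.65, and Ezr (ezrin) by 0.70.

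Survival and death genes moved in both directions, with 13 of 34 rising (38.2%, against 6.55% of all genes) and 7 falling (20.6%, against 6.69%). Phlda1 rose by 4.04. Ier3 (IEX-1) read 5.23, 5.26, 5.45 and 5.36 in the untreated arrays and 7.91, 7.69 and 8.20 in the LPS arrays, a rise of 2.61 ± 0.12 (limma adjusted p = 1e-08). Cflar (c-FLIP), which blocks caspase-8, rose by 2.23, and Gadd45b, a stress sensor, by 2.30. Bmf, a BH3-only protein that promotes death, read 9.04, 9.04, 9.0 and 9.35 in the untreated arrays and 7.86, 7.72 and 8.27 in the LPS arrays, a fall of 1.16 ± 0.14 (limma adjusted p = 8.6e-05). The message of Cflar, a blocker of death signals, was thus higher and that of Bmf, an initiator of death, lower at 1 hour. This pair does not stand for the list, which was not sorted by role. Falls in this list dropped to 1 when the change had to exceed 0.2.

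Stress genes followed a partial pattern: 9 of 29 rose (31%, against 6.55% of all genes) and 1 fell (3.45%, against 6.69%). Ppp1r15a (GADD34), which restores translation after stress, read 8.57, 8.58, 8.63 and 8.46 in the untreated arrays and 11.61, 11.33 and 11.52 in the LPS arrays, a rise of 2.92 ± 0.08 (limma adjusted p = 1.3e-10). Nupr1 rose by 2.81, Dnajb4, a heat shock chaperone, by 1.47 and Mt2, a metallothionein, by 0.96. Vhl, which marks hypoxia-inducible factor for degradation, fell by 0.80 ± 0.08 (limma adjusted p = 2.7e-05), from 8.58, 8.43, 8.29 and 8.55 to 7.66, 7.62 and 7.72. Without LPS replicate 2 the rises in this list numbered 5. Of 25 oxidant and antioxidant genes 6 rose (24%) and 2 fell (8%). Acod1, the enzyme that makes itaconate, read 6.89, 7.18, 7.21 and 6.45 in the untreated arrays and 12.25, 12.40 and 12.10 in the LPS arrays, a rise of 5.32 ± 0.17 or 39.8-fold (limma adjusted p = 4.3e-10). Slc7a11, the cystine importer of glutathione synthesis, rose by 1.47, Gch1, of tetrahydrobiopterin synthesis, by 1.47 and Sod2, the mitochondrial superoxide dismutase, by 1.43. Osgin1 fell by 0.73, as did Keap1, the sensor that holds back the antioxidant factor NRF2, by 0.33, a call lost in 5 of the 23 alternative fits.

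Genes linked to glucocorticoids and FoxO factors held 4 of the 68 falls of 2-fold. Of 26 measured, 10 rose (38.5%, against 6.55% of all genes) and 7 fell (26.9%, against 6.69%). Tsc22d3 (GILZ), an anti-inflammatory protein that glucocorticoids induce, read 9.02, 9.09, 9.08 and 9.06 in the untreated arrays and 7.37, 7.51 and 7.28 in the LPS arrays, a fall of 1.68 ± 0.07 (limma adjusted p = 3e-09). Txnip, an arrestin that limits glucose uptake and binds thioredoxin, read 11.79, 11.94, 11.94 and 12.00 in the untreated arrays and 10.35, 10.64 and 10.58 in the LPS arrays, a fall of 1.39 ± 0.08 (limma adjusted p = 2e-07). The related arrestins Arrdc3 and Arrdc2 fell by 1.63 and 1.10. Other members of the list rose: Depp1 by 1.56, Irs2 by 1.51, Cited2 by 1.41 and Sgk1 by 0.75. The factors themselves did not pass, with changes of -0.05 for Nr3c1 (the glucocorticoid receptor), -0.05 for Foxo1 and -0.23 for Foxo3. The list had no common direction.

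Lysosomal, respiratory chain and ribosomal protein genes passed at shares of 9.38%, 1.19% and 3.8%, against 13.2% of all genes. Of 32 lysosome, autophagy and endosome genes 3 rose, the cargo receptor Sqstm1 (p62) by 0.46, Ctsc by 0.31 and Snx10 by 0.27, and of 84 respiratory chain genes 1, Ndufaf3, rose by 0.28. The calls of Ctsc, Snx10 and Ndufaf3 were lost in 1, 4 and 2 of the 23 alternative fits. Of 79 cytosolic ribosomal protein genes 3 fell, Rpl32l, Rps19-ps3 and Rps14, of which Rps14 had the firmest call, lost only when the change had to exceed 0.2. The falls in these lists, 0, 0 and 3 (limma) with 5, 18 and 15 at an unadjusted p under 0.05, were not firm: they reached 5, 12 and 13 over the alternatives that kept every array, and without LPS replicate 1 they numbered 2, 7 and 8. In other metabolic lists the shares were higher, at 20% and 25.9%. Of 30 genes of iron, zinc and amino acid handling 4 rose, Odc1, the first enzyme of polyamine synthesis, by 0.92, Ahr, the aryl hydrocarbon receptor, by 0.63, the zinc importer Slc39a14 by 0.56 and Slc7a1 by 0.53. The iron exporter Slc40a1 (ferroportin) fell by 0.47 and the zinc exporter Slc30a1 by 0.36, calls lost in 4 and 10 of the 23 alternative fits. Of 27 sterol and lipid genes 7 rose, and 4 without LPS replicate 2. Ch25h, which makes 25-hydroxycholesterol, read 4.58, 4.54, 4.05 and 4.51 in the untreated arrays and 6.27, 6.10 and 6.00 in the LPS arrays, a rise of 1.70 ± 0.13 (limma adjusted p = 2.6e-06), and Insig1, which holds back sterol synthesis, rose by 0.71.

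Among 353 solute carriers (symbols starting with Slc) 15 rose (4.25%) and 32 fell (9.07%), against 6.55% and 6.69% of all genes. The median change was -0.0481. Falls numbered 19 with array weights, 2 when the change had to exceed 0.2, and 15 without untreated replicate 2 or without LPS replicate 2. Slc25a25, a mitochondrial ATP and phosphate carrier, read 6.25, 6.43, 6.33 and 6.37 in the untreated arrays and 8.34, 8.43 and 8.63 in the LPS arrays, a rise of 2.12 ± 0.09 (limma adjusted p = 9.9e-09). Slc2a6, a sugar transporter, rose by 1.59, and Slc20a1, a phosphate importer, by 0.99. Slc26a11 had the largest fall of the carriers, at -0.55.

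**Figure D3:**
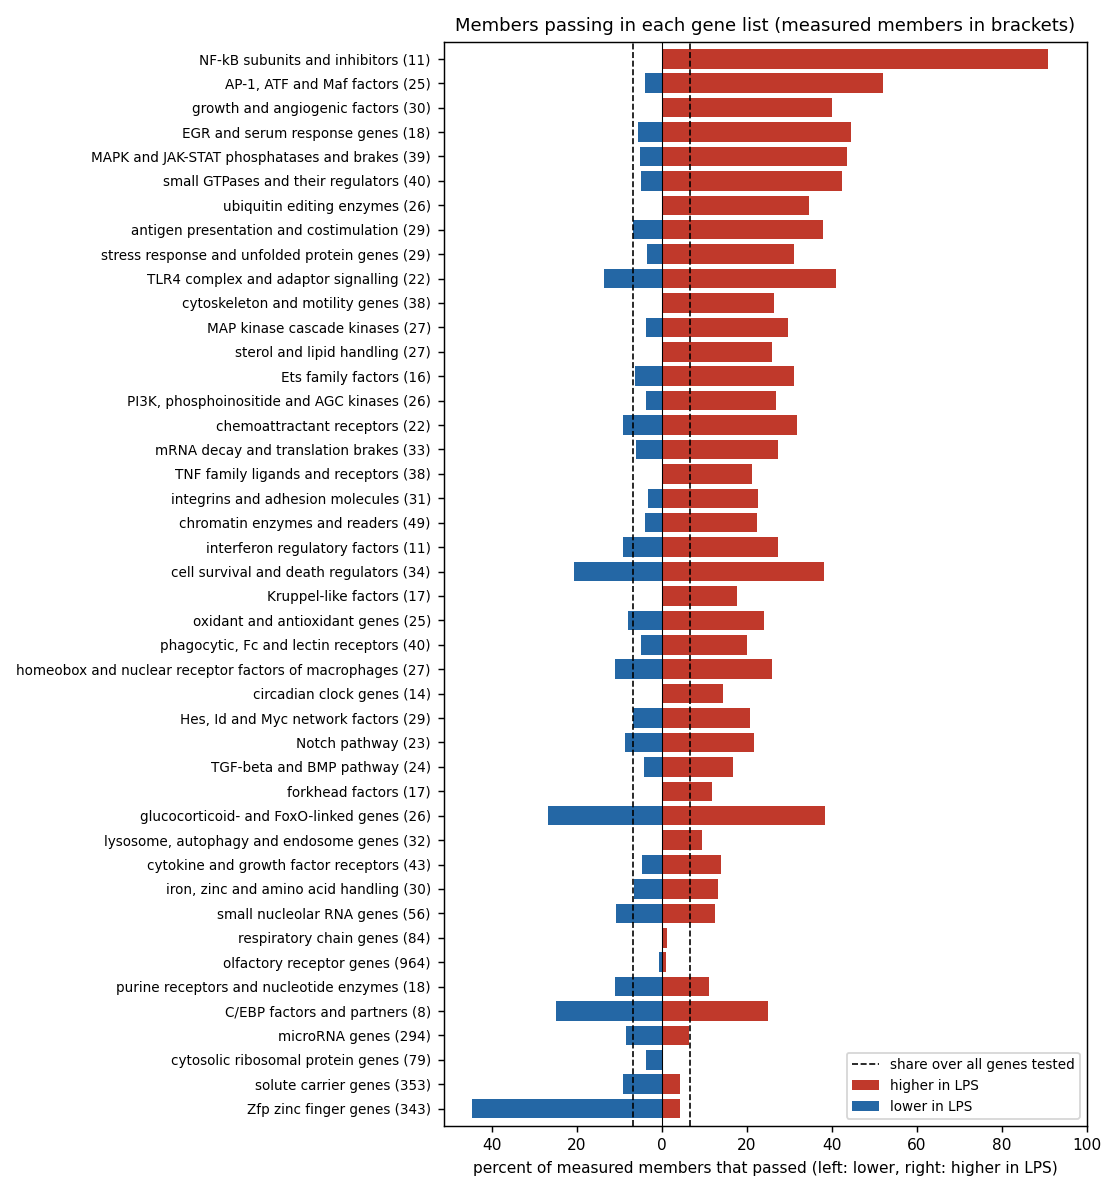
Bars give the percent of measured members of each gene list that passed, to the right for rises and to the left for falls, with dashed lines at 6.55 and 6.69 percent for all genes. NF-kB subunits and inhibitors have the longest bar of rises at 90.9 percent, and Zfp zinc finger genes the longest bar of falls at 44.6 percent.

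The falls had 1 prominent family. Zfp genes encode zinc finger proteins, and many of them carry a KRAB domain that recruits a silencing complex to DNA. Of 343 measured genes with this symbol prefix, 153 fell (44.6%) and 15 rose, with a median change of -0.289 against -0.0146 over all genes. They made up 1.83% of the genes tested, 12.2% of the 1254 falls and 42.6% of the 68 falls of 2-fold, and 1.22% of the rises. The prefix was chosen with these falls known, so the shares describe the family and are no test of it.

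Zfp870 read 6.63, 6.05, 6.28 and 6.44 in the untreated arrays and 4.56, 4.27 and 4.78 in the LPS arrays, a fall of 1.82 ± 0.16 (limma adjusted p = 6.3e-06). Zfp39 read 7.47, 7.39, 7.26 and 7.39 in the untreated arrays and 5.42, 5.61 and 5.71 in the LPS arrays, a fall of 1.80 ± 0.12 (limma adjusted p = 4.8e-07). The LPS arrays of both genes lay more than 1 unit below the untreated arrays. Zfp763 fell by 1.78, Zfp273 by 1.72, Zfp128 by 1.72, Zfp773 by 1.58, Zfp418 by 1.52, Zfp72 by 1.51 and Zfp189 by 1.42. These 9 genes are among the 15 largest falls once predicted genes without a name and small RNA genes are left out. The largest rises with the prefix were Zfp719 at 2.05, Zfp36 at 2.05, Zfp131 at 1.71 and Zfp263 at 1.43. Zfp36 is not a DNA-binding repressor but the decay factor described above, so the prefix is not uniform in function.

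The share that fell varied with the untreated value and was above that of all genes in each class. It was 4.88% of 41 Zfp genes in the olfactory range, against 1.07% of all genes there. In the 3 classes above it was 47.3% of 110, 55.9% of 161 and 29% of 31, against 6.74%, 12.6% and 8.47%. Related zinc finger genes named Zkscan, Zscan or Zbtb, which were looked at after the Zfp values were seen, had 25 falls and 8 rises among 64 genes, with a median change of -0.213. Falls among Zfp genes numbered 97 when the change had to exceed 0.2, 115 to 166 over the other alternatives that kept every array, and 128 to 156 with 1 array left out. Many of these genes share related zinc finger sequence, and the part of shared probe signal in the count was not tested. Their promoters held GGNNTTTCC in 7.46% and TGANTCA in 4.48% of 134 windows of Zfp genes that fell, against 7.83% and 3.91% of 281 windows of the whole prefix.

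**Figure D4:**
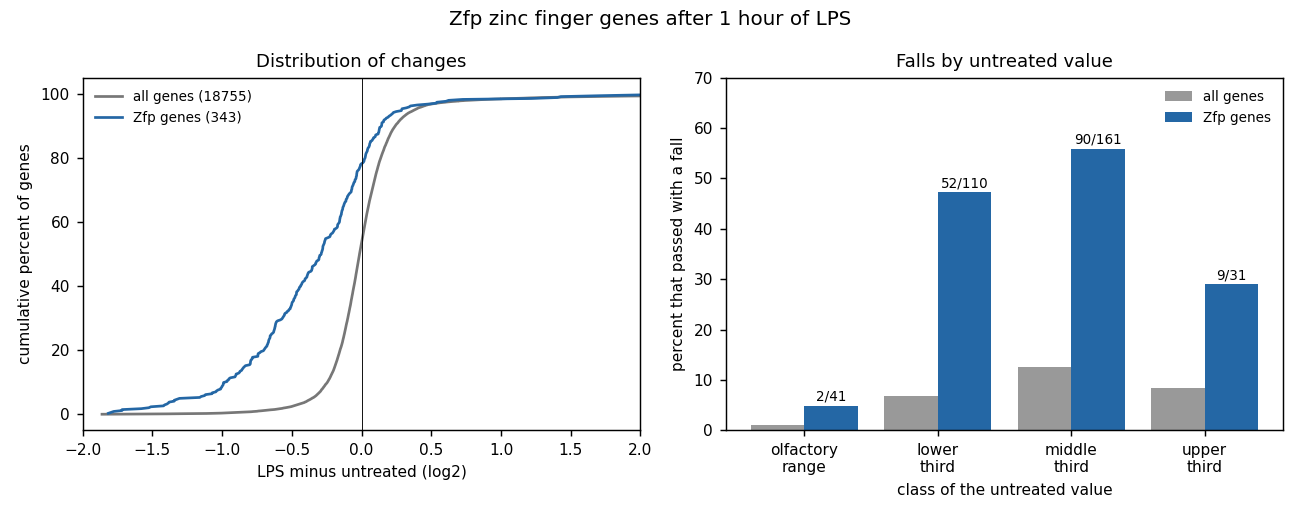
The left panel gives the cumulative percent of genes against the change (LPS minus untreated, log2) for 343 Zfp genes and for all genes, and the right panel the percent that passed with a fall in 4 classes of the untreated value. The Zfp curve lies to the left of the curve of all genes for changes below 0, and the shares reach 47.3 and 55.9 percent in the low and middle classes.

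MicroRNA genes are transcribed as long precursors that are cut to a hairpin and then to the mature microRNA. The labels do not say which form the probe sets read, so the values report the gene and not the mature microRNA. Of 294 such genes (symbols starting with Mir, 3 of them host genes ending in hg), 19 rose (6.46%), 7 of them 2-fold, and 25 fell (8.5%), 4 of them 2-fold. These shares are near the 6.55% and 6.69% of all genes. The counts were not firm: rises and falls numbered 10 and 8 when the change had to exceed 0.2, and 8 and 5 with genes below the median level left out, which drops many of these dim genes from the test. Falls numbered 16 with array weights, 15 without untreated replicate 3 and 16 without LPS replicate 3. Hairpins were matched in RefSeq (GRCm38.p6) for 252 of the 294. Mature sequences are printed for the genes the account turns on, each 5′ to 3′ with its seed, bases 2 to 8, in capitals. They are shown because the seed sets which messages a microRNA pairs with. miR-221 and miR-222 share a seed, as do miR-93 and miR-106b.
miR-155-5p: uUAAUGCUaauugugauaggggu
miR-146a-5p: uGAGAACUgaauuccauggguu
miR-221-3p: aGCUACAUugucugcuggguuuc
miR-222-3p: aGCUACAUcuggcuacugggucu
let-7e-5p: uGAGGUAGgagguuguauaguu
miR-125a-5p: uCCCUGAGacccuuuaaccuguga
miR-340-5p: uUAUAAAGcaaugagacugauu
miR-181b-5p: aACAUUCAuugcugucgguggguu
miR-93-5p: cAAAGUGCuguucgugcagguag
miR-106b-5p: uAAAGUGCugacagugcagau

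Mir155, which lies at chr16:84714140-84714204 (plus strand), encodes an inducer of inflammation that targets Socs1 and Ship1. It read 4.12, 4.84, 4.75 and 3.46 in the untreated arrays and 8.77, 8.86 and 8.80 in the LPS arrays, a rise of 4.52 ± 0.25 or 22.9-fold (limma adjusted p = 1e-07). Mir221 and Mir222 lie beside each other on the X chromosome, at chrX:19146294-19146388 and chrX:19146893-19146971 (minus strand). Mir221 read 6.07, 6.02, 6.12 and 5.99 in the untreated arrays and 9.39, 9.70 and 9.86 in the LPS arrays, and Mir222 read 5.93, 5.64, 5.27 and 5.60 in the untreated arrays and 8.75, 9.08 and 9.44 in the LPS arrays. Their rises were 3.60 ± 0.10 and 3.48 ± 0.16 (limma adjusted p = 1.4e-10 and 2e-08). Mir146, the miR-146a gene at chr11:43374397-43374461 (minus strand), which restrains Irak1 and Traf6, read 2.80, 2.74, 2.90 and 2.78 in the untreated arrays and 5.13, 5.38 and 5.45 in the LPS arrays. Its untreated values lay in the olfactory range, and the rise was 2.52 ± 0.09 (limma adjusted p = 7.5e-10).

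Smaller rises included neighbouring microRNA genes. Mirlet7e and Mir125a, at chr17:17830352-17830444 and chr17:17830812-17830879 (plus strand), rose by 0.93 and 0.68, and Spaca6, a gene that spans both, rose by 0.87. Mir99b, of the same cluster, rose by 1.04, and Mir191, Mir674 and Mir532 by 1.18, 1.15 and 0.77. Mir532 lies within a measured gene that did not pass (change 0.01). A difference from the spanning gene was thus not confined to the falls described next.

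Several microRNA genes fell within a measured gene that did not pass. Mir340 (at chr11:50069702-50069799) read 3.74, 3.97, 4.45 and 4.49 in the untreated arrays and 2.15, 2.26 and 2.60 in the LPS arrays, a fall of 1.83 ± 0.17 (limma adjusted p = 1.3e-05), whereas Rnf130, which spans it, had a change of -0.08 and did not pass. The LPS values of Mir340 lay in the olfactory range. Mir342 fell by 0.95 within Evl (change -0.08), Mir326 by 0.91 within Arrb1 (-0.08), Mir350 by 1.34 within Cep170 (0.13) and Mir107 by 0.79 within Pank1 (-0.11). None of these 4 spanning genes passed. Mir181b-1 fell by 1.59 ± 0.16 (limma adjusted p = 1.9e-05), from 6.71, 7.06, 6.96 and 6.91 to 5.04, 5.25 and 5.68. Mir93 and Mir106b, which share a seed and lie within Mcm7 (change 0.23, not passed), fell by 0.72 and 0.51. The spanning genes were taken on either strand.

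**Figure D5:**
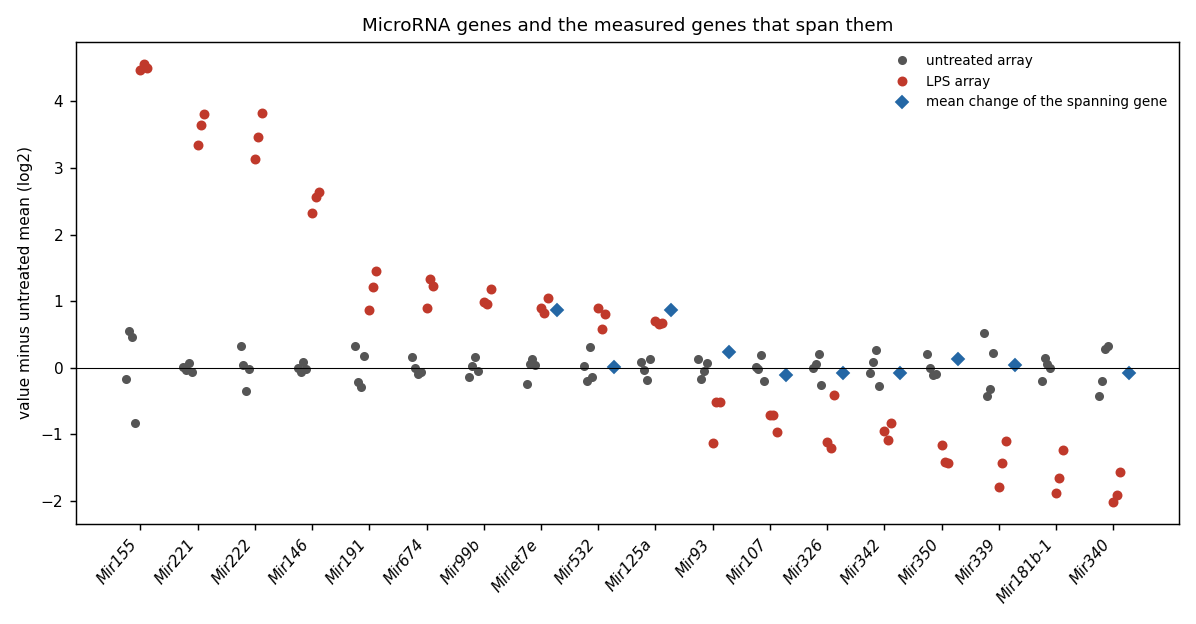
Points give the value of each array minus the untreated mean (log2) for microRNA genes on the horizontal axis, grey for the 4 untreated and red for the 3 LPS arrays, and diamonds give the mean change of the measured gene that spans the microRNA. The diamonds of the genes spanning microRNAs that fell lie near 0, as does that of the gene spanning Mir532, which rose.

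Several of the large changes lay outside every list, and the genes named next were chosen after their values were seen. Cd69, an early activation receptor, read 5.01, 4.13, 5.04 and 4.64 in the untreated arrays and 9.02, 8.78 and 8.70 in the LPS arrays, a rise of 4.13 ± 0.22 (limma adjusted p = 5.3e-08). Hcar2, the receptor for niacin and ketone bodies, rose by 3.32. Flrt3, a membrane protein of axon guidance, rose by 3.69 and Ednrb, the endothelin receptor B, by 2.35, beside the rise of its ligand Edn1. Sele (E-selectin), best known from endothelium, read 4.27, 4.25, 4.14 and 3.96 in the untreated arrays and 7.46, 7.30 and 7.23 in the LPS arrays, a rise of 3.17 ± 0.11 (limma adjusted p = 9.4e-10). Plat (tissue plasminogen activator) rose by 3.47, Noct (a circadian NADP phosphatase) by 3.03, Errfi1 (an inhibitor of the EGF receptor) by 3.01, Gja1 (connexin 43) by 2.56, Pvr by 2.51, Sdc4 (syndecan-4) by 2.49 and Prdm1 (the repressor BLIMP-1) by 2.31. These 12 genes span receptors, adhesion, proteolysis and gene repression.

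Among the falls outside the lists, Cnr2, the cannabinoid receptor of immune cells, read 9.06, 9.0, 9.10 and 8.96 in the untreated arrays and 7.40, 7.23 and 7.72 in the LPS arrays, a fall of 1.58 ± 0.11 (limma adjusted p = 6.4e-07). Angptl4, an inhibitor of lipoprotein lipase, fell by 1.50, Rsrp1 by 1.27, Frat1, which promotes Wnt signalling, by 1.24, and Lyl1, a blood-lineage transcription factor, by 1.04. Dnajc28 fell by 1.73 and Cd300lb, an activating receptor of myeloid cells, by 0.97. Cnr2 had no overlap between groups, with a gap of over 1 unit.

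The 3 LPS arrays were alike but not equal in strength. The median change of the 294 genes that rose 2-fold was 1.75 in LPS replicate 1, 1.87 in replicate 2 and 1.64 in replicate 3, and that of the 68 falls was -1.25, -1.34 and -1.19. Replicate 2 was highest for 148 of the 294 rises and lowest for 34 of the 68 falls. The small RNA genes did not follow this order: over the 19 microRNA genes that rose the medians were 0.875, 0.777 and 0.897. Among genes that rose 2-fold, the spread over LPS arrays was widest for Cxcl3, Orm3, Bcl2a1c, Edn1 and Il27. Cxcl3, a neutrophil-attracting chemokine, read 4.83, 4.66, 4.59 and 4.83 in the untreated arrays and 7.03, 5.90 and 5.81 in the LPS arrays. Orm3, an acute-phase protein, read 2.87, 2.73, 2.74 and 2.84 in the untreated arrays and 3.23, 4.07 and 4.31 in the LPS arrays. All of these Orm3 values but the last lay below the olfactory mark of 4.16. Cxcl3 was highest in LPS replicate 1 and Orm3 in replicate 3, whereas Edn1 and Il27 were highest in replicate 2, at 6.36, 6.76 and 5.70 and 6.31, 7.05 and 6.01 in order. Bcl2a1c is 1 of several near-identical copies, so its probe signal may be shared.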

How the data were processed

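The deposited values were taken as log2, from the range of 1.2 to 13.81 and from RMA (background correction, normalization and summary per probe set), which is named in the submitters' processing notes beside Affymetrix Power Tools, R 2.13.1 and Partek with no roles. Per the labels, 12 arrays were made and the authors dropped 1 LPS array for quality. For the genome build, the sources used here give none, so promoter and microRNA coordinates are those of RefSeq on GRCm38.p6, matched by Entrez gene identifier.

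Of 35309 probe sets, 21143 had 1 symbol and gave 18755 genes, the brightest probe set being used for the 1379 genes with more than 1. Probe sets with several symbols (1870) or none (12296) were left out.

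Group means were fitted with limma 3.58.1 in R 4.3.3 (8 residual and 3.77 prior degrees of freedom) after the code was tested on simulated data. The contrast was two-sided and unpaired, with plots by matplotlib 3.10.9 (Python 3.11.15). Alternatives were other scalings (quantile, equal medians, cyclic loess), a trended and robust variance, array weights, the 7 arrays alone, filters on dim genes, other handling of probe sets, a limma treat threshold of 0.2, a block on replicate number, and leaving out every array in turn.

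There were 37 pathway lists, 8 marker lists and 7 symbol prefixes. Members and lists were chosen with earlier results of these data known and are no independent evidence of a direction. Genes were named by a rule. It took the 15 largest rises and 15 largest falls without overlap of arrays, leaving out unnamed and small RNA genes. In each list it took up to 4 rises and 4 falls without overlap and the 2 brightest members that did not pass. It also took up to 10 microRNA genes in each direction and the 5 rises of 2-fold most spread over LPS arrays. A further 26 genes were put forward whatever their change, and not all of them are printed. The text prints those its paragraphs are about. Members of a short count, genes outside every list, genes that span microRNAs, 9330175E14Rik, Mir125a, Mir106b and Cd274 were named after their values were seen.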

Additional observations from a re-analysis of the deposited data

Results flagged for a closer look

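For 14 of the 274 genes named, 1 untreated array stood apart from the other 3, with a gap to the nearest of them that took most of the range (above Dixon's 95% critical value for 4 samples). Chance alone sets apart about 1 in 20 such groups.

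Untreated replicate 4 was apart for Acvr1b (9.29, the others 9.10 to 9.13), Bmf (9.35, the others 9.0 to 9.05), Kdm6b (6.95, the others 7.05 to 7.06) and Nfkbia (9.44, the others 9.57 to 9.59). Untreated replicate 1 was apart for Cd40 (7.48, the others 6.95 to 7.03), Dusp1 (10.03, the others 10.19 to 10.22) and Gch1 (6.97, the others at 6.87). Untreated replicate 3 was apart for Ch25h (4.05, the others 4.51 to 4.58), Maml3 (7.95, the others 8.09 to 8.10), Tab1 (8.37, the others 8.28 to 8.29) and Zc3h12c (8.94, the others 8.66 to 8.70). Untreated replicate 2 was apart for Col3a1 (5.38, the others 5.19 to 5.21), Ezr (9.26, the others 9.36 to 9.37) and Tfec (9.49, the others 9.63 to 9.64).

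Probe sets outside the comparison carried signal too. Of the 12296 without a symbol, 1001 passed with a fall and 287 with a rise (limma, adjusted over all probe sets). Of the 1870 with several symbols, 127 fell and 70 rose.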

How the results depend on the processing

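Of the 274 genes named in the text, 253 passed. Of these, 198 kept the call and its sign in each of the 23 alternative fits that tested them, 55 lost it in at least 1, and 0 changed sign. Of the 21 that did not pass, 7 passed in at least 1. When the change had to exceed 0.2 (limma treat), 891 genes passed, 539 with a rise and 352 with a fall. With genes below the median level left out, 41 genes fell 2-fold. Leaving out each array in turn gave 1925 to 2364 genes that passed, 992 to 1196 rises, 869 to 1187 falls, 339 to 385 changes of 2-fold, 282 to 302 rises of 2-fold and 57 to 83 falls of 2-fold. The other alternatives gave 1884 (the 7 arrays alone) to 3042 (trended and robust variance) genes that passed, within 1.5 times the 2483 reported. Equal array medians moved the median change of all genes to -0.0481 and quantile normalization to 0.022. Of the genes with several probe sets, 5 had 1 passing up and another passing down.

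With the replicate number as a block, 2454 genes passed, 1278 with a rise and 1176 with a fall, and 2102 were shared with the unblocked fit. Deviations of same-numbered untreated and LPS arrays correlated across genes at 0.108, 0.207 and -0.0201, and differently numbered arrays at -0.138 to 0.0947. The third pair did not reach 0.1 and the labels state no pairing, so the arrays were not treated as paired, though a shared source of the first and second pairs is not excluded. The number of arrays limits the precision of small changes, and dim genes had the fewest calls.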
